A study of Mus musculus with 7 samples.

Results

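The genes examined here make, package, take up or break down serotonin, or encode transcription factors of serotonin-producing cells: Tph1, Tph2, Ddc, Slc18a1, Slc18a2, Slc6a4, Maoa, Maob, Fev and Lmx1a. They were chosen by symbol, and all 10 were found among the 55536 genes of the count table. RNA was sequenced from pancreatic alpha cells, the source of glucagon in the islet, in 4 control and 3 knockout (KO) libraries, to ask which genes the homeodomain factor NKX2.2 regulates in these cells in vivo. All mice carried Gcg-iCre and the Rosa26:tdTomato reporter. Controls were Nkx2.2+/+ and KO mice Nkx2.2fl/fl, on a mouse strain that the design text spells C57B1/6J. Both groups therefore carried the Cre recombinase expressed from the glucagon gene and the red reporter by which the cells were sorted, and they differed by the floxed Nkx2-2 alleles. The Cre acts only where the glucagon promoter has been active, so sorted cells include any cell with that history. The age and sex of the mice, and whether animals were pooled, are not given in the sources used here. Nothing in the labels says that the libraries came from separate animals, so the p-values measure the spread between these libraries.

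Serotonin is made from the amino acid tryptophan. Tryptophan hydroxylase carries out the rate-limiting step, with TPH1 in gut enterochromaffin cells and other peripheral tissues and TPH2 in neurons, and aromatic amino acid decarboxylase (DDC) completes the synthesis. The vesicular monoamine transporters VMAT1 (Slc18a1) and VMAT2 (Slc18a2) load the amine into granules, the plasma membrane transporter SERT (Slc6a4) takes it back up, and the monoamine oxidases (Maoa, Maob) degrade it. In the gut, NKX2.2 and LMX1A belong to the transcription factors of enterochromaffin cells, and FEV (also called PET1) is an ETS-domain factor of serotonin neurons that is also found in islet endocrine cells.

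Libraries held between 45483504 and 72456557 counts, and between 84.4% and 88.9% of the counts from 1 to 10 in a library were even. The 3-count floor used here takes counts as independent and covers counting error only. It was between 2.17 and 3.92 normalized counts, that is, counts divided by DESeq2 size factors. With most low counts even, the counts may not be independent, and the floor may be too low. Glucagon transcripts took 11.4% to 13.5% of the counts in controls and 5.87% to 7.39% in KO libraries, and the 8 alpha cell markers were present in each library. The KO libraries are KO 1, KO 2 and a library whose header number (4) matches no KO title, called the unnumbered KO library, and KO values are given in that order throughout. Nkx2-2 normalized counts across controls 1 to 4 were 8596, 11199, 12297 and 9782, against 7758, 7534 and 7694 across KO libraries. The fall of Nkx2-2 (log2 fold change -0.45, adjusted p 0.0223 in DESeq2, 0.152 in edgeR) left transcripts in every KO library. Counts were summed over the whole gene and the deleted part is not given in the sources used here, so they do not measure the deletion itself, and 51.3% of the Nkx2-2 exon length lies inside an opposite-strand gene. Its call held when 2 of the 7 libraries were left out singly and was lost for the others, and it was also lost with library totals as the scale (adjusted p 0.0969) and with the title numbers as a block (0.130). Control 4 stood apart, with 31024 genes detected against 23150 to 25873 in the other 6 libraries. The sums of 4 Y-linked genes ran from 0 to 8844 normalized counts in controls and from 1675 to 11338 in KO libraries, so the libraries differed in the sex of their cells. Xist, a transcript of female cells, was at 43397 in KO 1 and 25628 in KO 2, whose Y-linked sums were 1675 and 3491. Control 3 had 5.23 for Xist, while control 4 had 1049 and the unnumbered KO library 808 beside their Y-linked counts. KO 1, KO 2, control 4 and the unnumbered KO library thus held transcripts of both sexes. Whether animals were pooled was not tested.

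Sorted alpha cells held abundant transcripts for the decarboxylase Ddc, the oxidase Maob and the transcription factor Fev, and few or none for the hydroxylases, Slc6a4 and Lmx1a. Fev fell in KO libraries to 63.9% of its control level. It was the only member called, a call being an adjusted p under 0.05: DESeq2 gave an adjusted p for 7 of the 10 members and called 1 of them, lower in KO, where 4.39% of all 18023 genes tested were called and 2.2% were called lower. The edgeR quasi-likelihood test called 0 of its 7 tested members (Fev had an adjusted p of 0.105), where 1.05% of 19310 genes were called, 0.647% lower in KO, with 1 member at an unadjusted p under 0.05 in each tool. The median log2 fold change of the 7 tested members was -0.20, beside 0.01 for all genes tested. Of the other 3, Tph1 and Lmx1a had too few counts for an adjusted p and Slc6a4 had none at all.

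**Figure D1:**
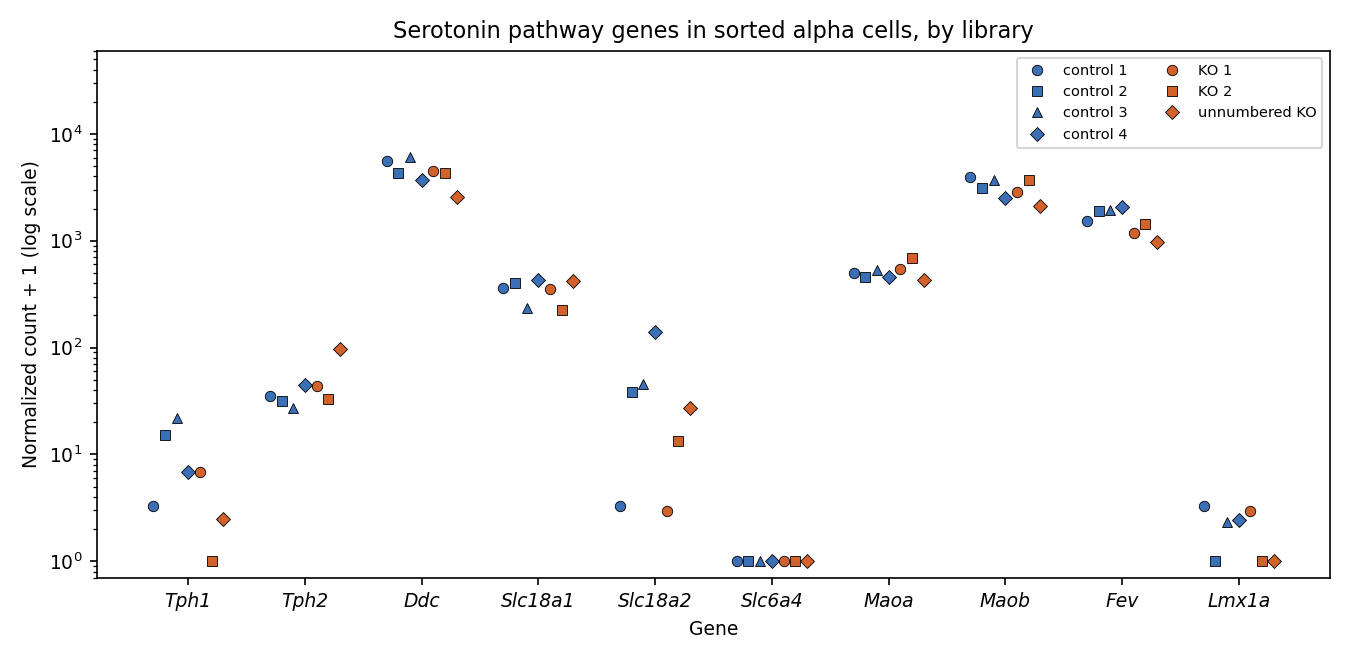
Normalized count plus 1 (vertical axis, log scale) of each of the 10 genes (horizontal axis) in each library, with controls in blue and KO libraries in orange, and the same marker shape for libraries that share a number in the table's header. Ddc, Maob and Fev lie highest, Slc6a4 lies at 0 counts in all 7 libraries, and Fev is the gene whose control and KO points do not overlap.

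Levels were compared between genes as normalized counts per kilobase of exon. In controls these were 1188 ± 227 for Maob, 1149 ± 149 for Fev and 1093 ± 244 for Ddc (SD, n = 4), and these 3 neighbours did not differ beyond their spread. Each was higher than in at least 94.5% of protein-coding genes, namely 95.1% for Maob, 94.9% for Fev and 94.5% for Ddc. Maoa followed with 116.7 ± 8.71 and Slc18a1 with 65.6 ± 15.6. Tph2 (11.7 ± 2.53) and Slc18a2 (10.7 ± 11.3) came next and overlapped, with Tph1 at 1.75 ± 1.36. In KO libraries the order at the top changed, with 1032 ± 278 for Maob, 848 ± 236 for Ddc and 734 ± 142 for Fev (SD, n = 3), again with overlapping spreads.

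Among the synthesis genes, Tph1 (chromosome 7, 46644641 to 46672537, minus strand) was close to the floor. Controls 1 to 4 held 2, 12, 16 and 8 counts, against 6, 0 and 2 across KO libraries. The groups overlapped, with the 2 highest libraries among the controls. The fitted log2 fold change was -2.13 (SE 1.43), with a 95% interval from -4.93 to 0.67, and no adjusted p was given in DESeq2 or edgeR. It was -3.76 without KO 1 and -1.56 without KO 2. A difference in Tph1 was thus not detectable at this depth.

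Tph2 (chromosome 10, 115078641 to 115185022, minus strand), the neuronal hydroxylase, was low but present in every library. Normalized counts across controls 1 to 4 were 34.0, 30.7, 26.1 and 43.4, against 43.0, 32.0 and 96.3 across KO libraries, the last being the unnumbered one. KO 1 and KO 2 lay within the range of the controls, and the unnumbered KO library lay above every other. The log2 fold change was 0.77 (SE 0.56, 95% interval -0.33 to 1.87, DESeq2 adjusted p 0.759). Without the unnumbered KO library it was 0.15.

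Ddc (chromosome 11, 11814101 to 11898144, minus strand), whose enzyme also makes dopamine, showed 5530, 4273, 6027 and 3679 normalized counts across controls 1 to 4, against 4482, 4291 and 2574 across KO libraries. The unnumbered KO library was the lowest of all 7, and KO 1 and KO 2 lay inside the control range. The mean was 4877 ± 1088 in controls and 3783 ± 1051 in KO libraries. The log2 fold change of -0.37 (SE 0.22, 95% interval -0.80 to 0.06) did not pass the threshold in DESeq2 (adjusted p 0.591) or edgeR (0.701). A share of 26.9% of the Ddc exon length lies inside a gene on the opposite strand, so part of its counts could belong to that gene if the counting did not use strand. For Ddc the fold change on the log2 scale was -0.48 without control 4 (DESeq2 adjusted p 0.128) and -0.15 without the unnumbered KO library (0.946).

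Of the vesicular transporters, Slc18a1 (VMAT1, chromosome 8, 69037711 to 69089235, minus strand) was the more abundant. Normalized counts across controls 1 to 4 were 357, 399.8, 235 and 426, against 351, 225 and 416 across KO libraries. The lowest values came from control 3 and KO 2, and the groups overlapped almost fully. The log2 fold change was -0.10 (SE 0.29, 95% interval -0.67 to 0.47, DESeq2 adjusted p 0.999), and it turned to 0.0062 when libraries were scaled to their totals.

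Slc18a2 (VMAT2, chromosome 19, 59260896 to 59296012, plus strand) varied more between libraries than any other member with an adjusted p. Normalized counts across controls 1 to 4 were 2.27, 37.7, 44.4 and 140.2, against 1.96, 12.4 and 25.9 across KO libraries. Control 1 and KO 1 had 2 counts each, under the floor, and control 4 was the highest. The log2 fold change of -2.06 (SE 1.07, 95% interval -4.16 to 0.03) did not pass in DESeq2 (adjusted p 0.433) or edgeR (0.642). Without control 4 it was -1.05 (adjusted p 0.754), so its size rested on that library, and 10% of the Slc18a2 exon length lies inside an opposite-strand gene.

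The reuptake transporter Slc6a4 (chromosome 11, 76998603 to 77032340, plus strand) had 0 counts in all 7 libraries. Taking counts as independent, a count of 0 allows up to 3 counts per library. A level above 3.92 normalized counts in any library would then be outside counting error alone. Most counts from 1 to 10 were even, so the counts may not be independent and the true bound may be higher. No fold change was computed.

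The monoamine oxidase genes lie tail to tail on the X chromosome, Maoa on the plus strand (16619698 to 16687818) and Maob on the minus strand (16709282 to 16817366), with 21463 bases between them. Maob showed 3911, 3096, 3726 and 2519 normalized counts across controls 1 to 4, against 2845, 3668 and 2120.3 across KO libraries. Maoa showed 500.3, 461, 531 and 452 across controls 1 to 4, against 548, 694 and 430.4 across KO libraries. Groups overlapped for both genes, and for both the unnumbered KO library was the lowest and KO 2 the highest KO library. The log2 fold change was -0.20 (SE 0.21, 95% interval -0.61 to 0.20, DESeq2 adjusted p 0.917) for Maob. For Maoa it was 0.20 (SE 0.20, 95% interval -0.20 to 0.60, adjusted p 0.924). The Maob value was -0.31 without control 4, and -0.026 when the unnumbered KO library was left out against -0.42 when KO 2 was. In the same order the last 2 values were 0.35 and 0.0064 for Maoa. Neither gene was called with each library's Y-linked sum as a covariate, a fit added once the data had been seen.

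Fev (chromosome 1, 74881509 to 74885419, minus strand) was the member that fell in DESeq2. Normalized counts across controls 1 to 4 were 1517, 1897, 1940.1 and 2079, against 1171, 1423 and 965 across KO libraries. Every KO library lay below every control, as was the case for 5.88% of all genes tested. The mean was 1858 ± 240.5 among controls (SD, n = 4) and 1187 ± 229 among KO libraries (SD, n = 3). The log2 fold change was -0.65 (SE 0.17, 95% interval -0.99 to -0.31), and the adjusted p was 0.00723 by DESeq2 but 0.105 by edgeR. In bulk RNA such as this, fewer cells that express a gene and less RNA per cell cannot be told apart. No exon of Fev lies inside a gene on the opposite strand.

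Controls and KO libraries with the same header number correlated in their deviations from their group means. Whether they did so more than libraries with different numbers was not tested. Fev was also compared within the same-numbered pairs. The KO level was 77.2% of the control for number 1, 75.0% for number 2 and 46.4% for number 4, the pair of control 4 and the unnumbered KO library, which are also the 2 deepest libraries. The direction was the same within all 3 pairs, which follows from every KO library lying below every control, and the largest difference was in the pair numbered 4. A fit with the header numbers as a block was added after the data were seen. It gave a log2 fold change of -0.63 and an adjusted p of 0.0167 in DESeq2. Control 3 has no KO library of its number and so does not inform this value. The planned block by title numbers, which rests on 4 libraries, gave -0.39 and lost the call (DESeq2 adjusted p 0.443). When libraries were left out singly, the log2 fold change stayed between -0.80 and -0.52, and without control 4 it was -0.59 (DESeq2 adjusted p 0.0131). The DESeq2 call was lost without control 3 (adjusted p 0.0519), when KO 1 was left out (0.0946) and when the unnumbered KO library was left out (0.0771).

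**Figure D2:**
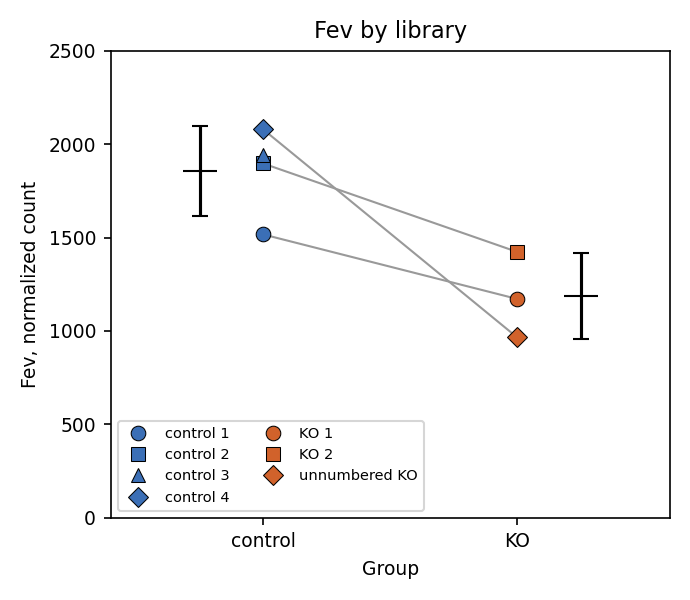
Fev normalized counts (vertical axis, from 0) in control (blue) and KO (orange) libraries, with lines joining libraries that share a header number and bars beside them giving the mean ± SD. All 3 KO libraries, from 965 to 1423, lie below the lowest control at 1517.

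**Figure D3:**
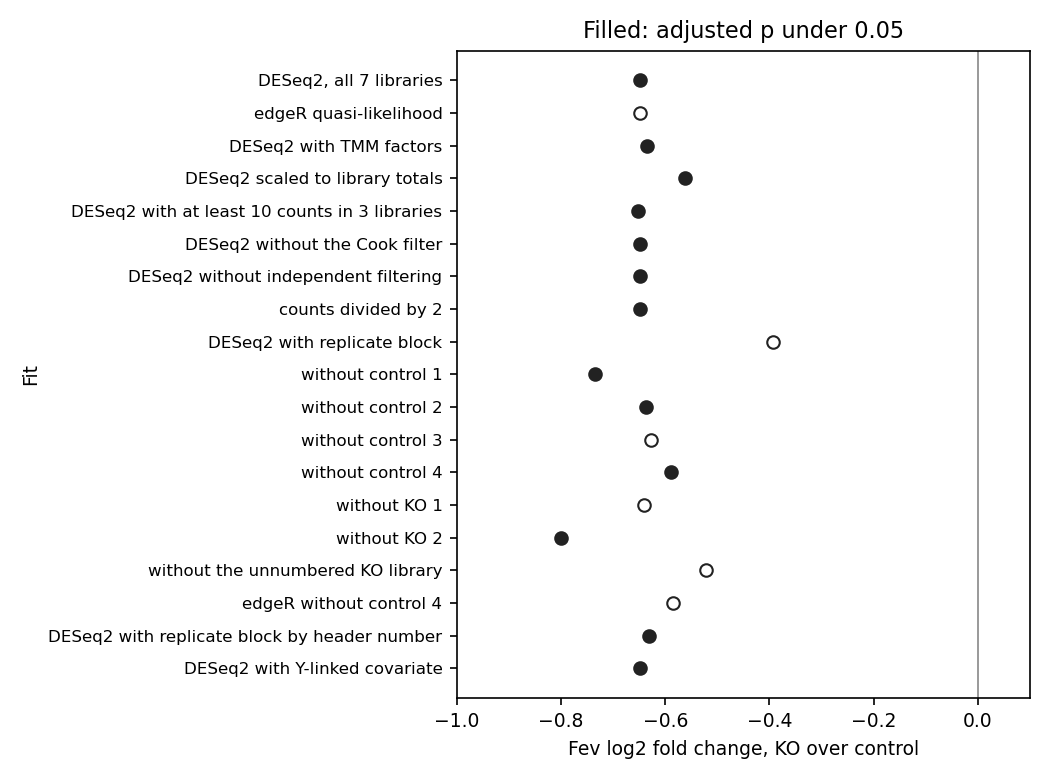
Fev log2 fold change of KO over control (horizontal axis) under each fit (vertical axis), filled where the adjusted p was under 0.05. All values lie below 0, between -0.80 and -0.39, and the edgeR fits are among the open points.

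The sequence before the Fev start is shown because Fev is the member that DESeq2 called. RefSeq's annotation of GRCm38.p6 gives a promoter window for 8 of the 10 members. The windows of 300 bases (250 before and 50 after a start) were searched on both strands for TNAAGTG, the core bound by homeodomain factors of the NK2 family to which NKX2.2 belongs. The 250 bases upstream of the Fev start (chr1:74885409-74885658, minus strand, 5′ to 3′) hold 1 match, on the opposite strand, in capitals:
Fev: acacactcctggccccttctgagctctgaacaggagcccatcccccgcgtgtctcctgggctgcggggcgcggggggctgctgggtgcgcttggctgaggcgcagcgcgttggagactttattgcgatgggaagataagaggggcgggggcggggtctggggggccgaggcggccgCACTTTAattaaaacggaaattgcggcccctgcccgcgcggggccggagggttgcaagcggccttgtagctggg

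Among the 8 members with a window, 4 held a match: Fev, Lmx1a, Tph1 (at the downstream of its 2 starts) and Maoa. Over all 32851 windows of this length, 11.5% held a match, and 13.1% of genes had at least 1. The 30 bases around each of the other matches are given for comparison, with the match, here on the gene's own strand, in capitals:
Lmx1a (chr1:167689535-167689564, plus strand): acgcgttgactTCAAGTGaaatcagagccg
Tph1 (chr7:46667365-46667394, minus strand): agctcccatccTCAAGTGactctttaaact
Maoa (chrX:16619568-16619597, plus strand): ttccatgcctcTCAAGTGcctatgctaggg
These matches are letters in a window and no measure of binding. Of the 4 genes that held them, Fev was called, Maoa was not, and Tph1 and Lmx1a were at or near the floor.

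Lmx1a (chromosome 1, 167689237 to 167848741, plus strand), the LIM-homeodomain factor of enterochromaffin cells, showed 2, 0, 1 and 2 counts across controls 1 to 4, against 2, 0 and 0 across KO libraries. All 7 values were under the floor of 3 counts, and no fold change is given. Its relative Lmx1b, a factor of serotonin neurons, was measured from 609 to 861 normalized counts in controls and from 468 to 701 in KO libraries (log2 fold change -0.32, DESeq2 adjusted p 0.628).

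Genes that bring tryptophan and other aromatic amino acids into the cell, or that handle serotonin after its synthesis, were taken as a list of 14. Of the 9 with an adjusted p in DESeq2, 3 fell and 1 rose, where 2.2% of all genes tested were called lower and 2.19% higher. Their median log2 fold change was -0.09. Slc7a8, the light chain of a neutral amino acid exchanger, showed 17016, 11723, 23168 and 16961 normalized counts across controls 1 to 4, against 5895, 7330 and 3615 across KO libraries. Its heavy chain partner Slc3a2 showed 8199, 6920, 9034 and 6623 across controls 1 to 4, against 4175, 4377 and 3448 across KO libraries. For both genes every KO library lay below every control, as for 5.88% of all genes tested.

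Slc7a8 fell by 1.62 on the log2 scale (SE 0.24), with adjusted p-values of 1.0e-08 (DESeq2) and 0.0372 (edgeR). Slc3a2 fell by 0.94 on the log2 scale (SE 0.15), with adjusted p-values of 2.6e-08 (DESeq2) and 0.0202 (edgeR). These were the only 2 genes of all 6 pathway lists called by edgeR. The aromatic amino acid transporter gene Slc16a10 fell by 0.40 on the log2 scale, from 21112 ± 599 to 15987 ± 2011 normalized counts (adjusted p 0.00801 in DESeq2, 0.152 in edgeR). Slc6a19, a neutral amino acid transporter of gut and kidney, was low and rose in DESeq2 by 2.11 on the log2 scale, from 25.6 ± 9.35 to 108.7 ± 28.1 (adjusted p 0.000704 in DESeq2, 0.0649 in edgeR). The DESeq2 adjusted p of Slc16a10 was 0.0914 without KO 1 and 0.0725 without control 3, that of Slc6a19 was 0.0701 without KO 2, and Slc7a8 and Slc3a2 passed whichever of the 7 libraries was left out. With the title numbers as a block the adjusted p was 0.159 for Slc7a8, 0.134 for Slc16a10 and 0.266 for Slc6a19, and only Slc3a2 of the 4 was called. Alpha cell markers fell beside these transporters, for 6 of 8 genes in DESeq2 and 3 in edgeR, and their part in the transporter differences was not tested. Slc7a5, the other light chain of Slc3a2 on the list, had a log2 value of KO over control of -0.09 (DESeq2 adjusted p 0.990). For Slc7a5, 100% of the exon length lies inside a gene on the opposite strand.

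**Figure D4:**
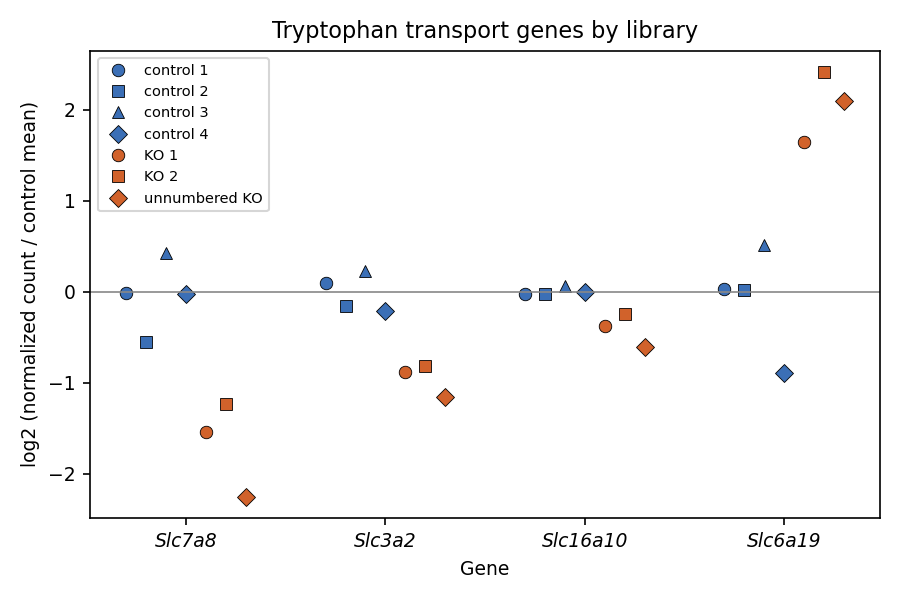
Normalized counts of Slc7a8, Slc3a2, Slc16a10 and Slc6a19 (horizontal axis) in each library relative to the control mean (vertical axis, log2), with controls in blue and KO libraries in orange. For the first 3 genes all KO points lie below all control points, and for Slc6a19 all lie above. Of all genes tested, 5.88% lay below in this way and 5.99% above.

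The cofactor of tryptophan hydroxylase, tetrahydrobiopterin, is made and recycled by the products of 8 listed genes. DESeq2 called 0 of the 7 with an adjusted p and edgeR 0 of 7, with 1 gene at an unadjusted p under 0.05 in each. The median log2 fold change was 0.09. The highest levels per kilobase were those of Pcbd1 (log2 fold change -0.05), Qdpr (0.39) and Pcbd2 (0.09), with DESeq2 adjusted p-values of 0.999, 0.635 and 0.999. Of the exon length, 73.9% for Qdpr and 56.2% for Pcbd2 lies inside a gene on the opposite strand. Without control 4 the Qdpr value was 0.18. The synthesis gene Gch1 was measured from 2831 to 4198 normalized counts in controls and from 3266 to 3946 in KO libraries. Transcripts for the cofactor enzymes were thus present where those for the hydroxylases were few.

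Serotonin receptor genes were sparse. Of 14, 2 had 0 counts in all libraries, 5 were at or under 3 counts in every library, a number that includes these 2, and 1 had an adjusted p. That gene, the ion channel subunit Htr3a, showed 27.2, 137, 136 and 34.7 normalized counts across controls 1 to 4, against 0, 99.1 and 32.6 across KO libraries (log2 fold change -0.93, DESeq2 adjusted p 0.947). That value was -2.35 without KO 2 and -0.35 without KO 1, and 74.9% of the Htr3a exon length lies inside an opposite-strand gene. The partner subunit of Htr3a, Htr3b, had 2 to 10 counts in controls and 0 to 2 in KO libraries. DESeq2 and edgeR called 0 of the receptors, with 0 at an unadjusted p under 0.05 in either.

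Of 17 transcription factors of serotonin neurons and enterochromaffin cells, besides Fev and Lmx1a, DESeq2 gave 10 an adjusted p, of which Nkx2-2 fell and Isl1 rose. Nkx2-2 is the gene floxed in the KO mice, so its call is no result about the list. Of all genes tested, 2.2% were called lower and 2.19% higher. Isl1, a LIM-homeodomain factor of islet cells, showed 8514, 10661, 9413 and 10586 normalized counts across controls 1 to 4, against 12925, 15240 and 11706 across KO libraries. Every KO library lay above every control, as for 5.99% of all genes tested. The log2 difference was 0.44 (SE 0.13), with adjusted p-values of 0.0230 (DESeq2) and 0.169 (edgeR), and leaving out each library in turn kept the DESeq2 call in 3 of 7 cases. For Neurod1, among the highest of the list per kilobase, the log2 fold change was -0.16 (adjusted p 0.901), and -0.27 without control 4. The median of the 10 tested genes was -0.08.

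Of 15 enterochromaffin cell markers, DESeq2 called 0 of 11 and edgeR 0 of 12, with 4 and 2 at an unadjusted p under 0.05. The granins Chga and Chgb, shared by endocrine cells in general, and the peptide gene Ucn3 had the highest levels per kilobase, with log2 fold changes of 0.50, 0.44 and 0.56 and DESeq2 adjusted p-values of 0.174, 0.119 and 0.205. The median of the list was 0.44. With the header numbers as a block, DESeq2 called 12 genes of all 6 pathway lists in place of 6. Over all genes, its calls went from 791 to 964 in that fit. The list genes added included Chga (adjusted p 2.3e-10), Chgb (2.0e-06), Ucn3 (0.000247), Slc29a4 (0.00754) and Qdpr (0.0280). Ucn3 is also a beta cell gene, and 9 beta cell markers summed to between 338218 and 693220 normalized counts in controls and between 531214 and 976137 in KO libraries. The part of these cells in the values was not tested.

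Catecholamine genes share Ddc and the vesicular transporters with serotonin. Of 6, DESeq2 called 0 of 3 tested and edgeR 0 of 3, with 1 and 0 at an unadjusted p under 0.05. Th, which makes the dopamine precursor, averaged 120.6 ± 50.2 normalized counts (SD, n = 4) among controls against 176 ± 44.2 (SD, n = 3) among KO libraries (log2 fold change 0.54, adjusted p 0.775). Dbh had 0, 8, 12 and 8 counts in controls 1 to 4 and 0 in each KO library, and received no adjusted p.

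**Figure D5:**
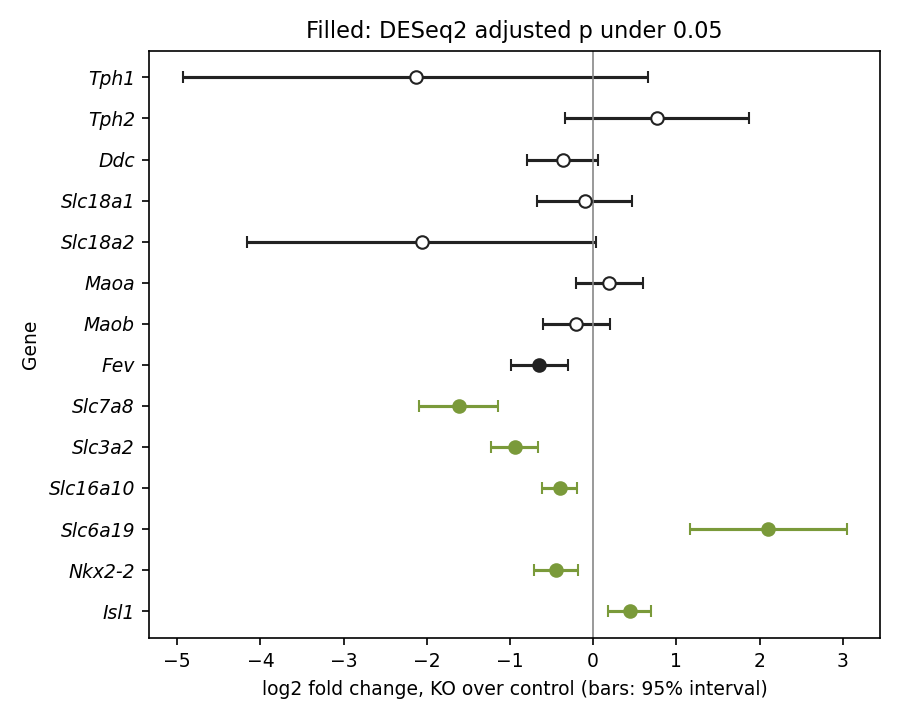
Log2 fold change of KO over control (horizontal axis) with its 95% interval for the 8 members above the floor of 3 counts in at least 1 library (black) and the 6 called genes of the pathway lists (green), filled where the DESeq2 adjusted p was under 0.05. Among members only Fev, at -0.65, is filled, and of the 8 members drawn Tph1 and Slc18a2 have the widest intervals. Lmx1a and Slc6a4, at or under the floor in every library, are not drawn.

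Other cells that make or store serotonin were looked for by their markers. Of 9 mast cell genes, 6 had 0 counts in all libraries and 1 more was under the floor everywhere. The remaining genes, Kit and Hdc, were measured in every library, from 1395 to 5135 and from 77.0 to 167 normalized counts. Of 6 platelet and megakaryocyte genes, 2 had 0 counts throughout, while Tubb1 (355 to 631 normalized counts) and Itga2b (154 to 279) were measured in every library. DESeq2 and edgeR called 0 of them, with 0 at an unadjusted p under 0.05. Among other islet cell types, 1 of 9 beta markers (Iapp), 1 of 3 delta markers (Rbp4) and Ppy for gamma cells rose in DESeq2. Of all genes tested, 2.19% were called higher. In edgeR the adjusted p was 0.153 for Iapp, 0.0761 for Rbp4 and 0.0474 for Ppy. The delta cell sum ran from 196046 to 398527 normalized counts in controls and from 354922 to 631739 in KO libraries, and Ppy from 178540 to 401493 and from 615185 to 783711. The part of these cells in the Fev difference was not tested.

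Across the 7 libraries, the genes whose log2 normalized counts followed Fev most closely among 12765 genes were Cldn4 (Pearson r 0.99), Mtmr7 (0.98) and Fmnl1 (0.98). Those closest to Maob were Lrrc14 (0.99), Parp1 (0.98) and Magee1 (0.98), and those closest to Ddc were Lonp1 (0.99), Adh5 (0.98) and Gpat4 (0.98). Among the members themselves Maob and Ddc had an r of 0.90, Maob and Maoa 0.63, Fev and Ddc 0.53, Ddc and Maoa 0.44, and Fev and Maob 0.42. Slc18a1 had an r of -0.70 with Maob, -0.56 with Ddc and -0.12 with Fev, and Fev and Maoa had -0.043. These are descriptions over libraries that share depth and library quality, and with so many genes a high r at the top of the list is a matter of rank.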

How the data were processed

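RNA from sorted alpha cells was made into libraries with a stranded total RNA kit for low input, per the labels' protocols. The authors deposited counts, as whole numbers, for each gene in each library. Per-gene steps before this are known in part: the submitters' processing notes name STAR, featureCounts, DESeq2 and mm10, and the strand setting is not given in the sources used here. All 55536 identifiers were found in GENCODE M21, from which positions and exon lengths were taken.

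KO was compared with control in DESeq2 1.42.0 (R 4.3.3; Wald test, no covariate, default filters at 0.05), the test named in the design text, with Benjamini-Hochberg adjustment over all genes, and in edgeR 4.0.16 (quasi-likelihood, TMM). DESeq2 set aside 1245 genes as count outliers. Scripts were tested on simulated data in which 200 of 19652 genes were changed. At an adjusted p under 0.05, 29.1% of the DESeq2 calls and 5.22% of the edgeR calls there were false. A call by DESeq2 alone may thus be false more often than its threshold states, so each call is given with both tools. Lists of related genes were described by counts and medians. The members and lists were chosen with earlier results of these data known. Genes were named if they were members, called, among the 3 highest of a list per kilobase, or among the 3 most like a leading member. Lmx1b, Gch1, Slc7a5, Kit, Hdc and the genes added by the block were chosen after their values were seen. Some genes that the rule names are not reported here.

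Header numbers 1, 2 and 4 occur in both groups. Same-numbered libraries correlated in their deviations from the group means (r 0.29, 0.28 and 0.48 over 12766 genes), so these numbers were used as a block. These values were not compared with those of libraries with different numbers. The labels do not say what a number marks.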

Additional observations from a re-analysis of the deposited data

Results flagged for a closer look

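The receptor gene Htr2b had 104.1 normalized counts in control 4, which stood apart from the other 3 controls by Dixon's test at the 95% level. The other 6 libraries had at most 1.18. All of its exon length lies inside a gene on the opposite strand. Of the 28 genes whose 4 control values were tested, this was the 1 flagged, where chance gives 1.4.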

How the results depend on the processing

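DESeq2 called 791 genes, 203 were called by edgeR and 249 by edgeR without control 4, 458 with a replicate block by the numbers that titles share, and 430 to 898 when 1 library was left out. DESeq2 called 964 with the header numbers as a block and 1059 with the Y-linked covariate. Scaling to library totals moved the median log2 fold change of all genes from 0.01 to 0.11 and the share of calls higher in KO from 49.8% to 69.7%. The member call (1, Fev) became 0 in edgeR with and without control 4, under the title block (log2 fold change -0.39, adjusted p 0.443, which rests on 4 libraries), and between 0 and 1 when 1 library was left out. The block by header number, chosen after the data were seen, changed no member's call. Calls in the pathway lists (6, with Nkx2-2 itself among them) became 2 in edgeR with and without control 4. They were 12 with the header block, 10 with the Y-linked covariate, and 3 to 9 when 1 library was left out (8 without control 2). The cause was not tested. Slc18a1 ran from -0.30 to 0.109 when 1 library was left out (-0.25 without control 3) and turned to 0.0062 with library totals, 0.0099 in edgeR without control 4, 0.0012 without control 4 and 0.109 without KO 2. Pcbd1 turned to 0.050 with library totals and 0.011 without the unnumbered KO library. Pcbd2 turned to -0.028 under the title block, -0.048 without control 4, -0.0045 without KO 1 (0.24 without control 2) and -0.042 in edgeR without control 4. Fev was lower in KO in all 18 alternatives. Counts at or near the floor limit Tph1, Lmx1a, Slc6a4 and most receptors.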

Other observations

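The ratio of Maob to Maoa, picked after its values were seen and therefore given without a test, was 11.7, 10.03, 10.5 and 8.32 across controls 1 to 4, in normalized counts per kilobase of each gene, against 7.76, 7.90 and 7.36 across KO libraries (KO 1, KO 2, unnumbered). Every KO library lay below every control, with a mean of 10.1 ± 1.39 (SD, n = 4) against 7.67 ± 0.280 (SD, n = 3), while neither gene was called. Of single genes, 11.9% of all tested lay apart in either direction, and no such share was worked out for ratios. A second ratio, Ddc over Fev, overlapped between the groups.

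Several sparse genes of the lists were lowest in control 1 and KO 1, which share a header number. Slc18a2 had 2 counts in each of them and 12 to 194 in the other libraries. Olfr78, an olfactory receptor of enterochromaffin cells, had 0 counts in both and 16 to 36 elsewhere. Tac1, the substance P precursor, had 2 and 4 counts there and 24 to 74 elsewhere, and Htr3a had 24 and 0 there and 44 to 116 elsewhere. The neuronal filament gene Prph had 62 and 10 counts there and 112 to 514 elsewhere. Other sparse genes of the lists went another way. KO 1 was the highest library for Trpa1 (158 normalized counts), Cck (21.5), Gal (15.6) and Htr1d (5.87). All genes named here were picked after their values were seen, and no test was made.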
